A study of Mus musculus with 11 samples.

Results

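Itgb2, Tigit, Grap, Asb2 and Tspan32 were grouped here as blood-cell type genes, without a check of which other tissues read them. All 5 were measured in cell lines grown from mouse mammary tumors. They are 5 of the 4461 genes in the deposited table and were taken from it by gene name, having been selected on their difference between the genotypes. Every value that sets one genotype against the other is therefore a description of these 5 genes, with no test. RNA-Seq was performed on 4 NIC/Cpt1a L/L lines (KO_1922, KO_1925, KO_2768 and KO_4258) and 2 NIC/Cpt1a +/+ lines (WT_5257 and WT_8905), and each line came from a separate tumor. Cpt1a is the carnitine palmitoyltransferase that lets long-chain fatty acids enter mitochondria for oxidation, and the study asked what its loss does to ErbB2-driven mammary tumor cells.

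All lines carry the MMTV-NIC transgene, in which the MMTV promoter drives an activated ErbB2 (NDL 2.5) and the Cre recombinase from 1 transcript in mammary epithelium, so Cre was also present in the controls. In NIC/Cpt1a L/L lines both Cpt1a alleles were floxed. The tumors were taken from female mice 8 weeks after they could be felt, and the cells were cultured without treatment. The labels call the cells primary mammary epithelial cells. The sample titles word the alleles the other way round from the genotype field, and groups follow the genotype field and the bracketed line names. Duplicate libraries were used for 5 lines and 1 library for KO_2768, giving 7 L/L and 4 +/+ libraries, and the line was taken as the replicate. In the titles these libraries are called biological replicates, while the paper describes independent lines in duplicate.

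Itgb2 encodes CD18, the beta subunit shared by the leukocyte integrins, which pair it with an alpha subunit to bind ICAMs and complement fragments. Tigit is an inhibitory receptor of T and NK cells whose ligand Pvr is common on epithelial and tumor cells. Grap is an SH2 and SH3 adaptor of the Grb2 family that links lymphocyte receptors to Ras. Asb2 is the substrate-binding subunit of a Cul5 ubiquitin ligase that directs filamins to degradation, and Tspan32 is a tetraspanin, a membrane protein that organizes other receptors, found mostly in blood cells.

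The 250 bases before the RefSeq starts of Tigit, Asb2 and Tspan32 (GRCm38.p6) are shown because Tigit and Asb2 varied together across the lines while Tspan32 stayed near the detection limit. The other members had no entry in the table of promoters. Capitals mark GGAA, the core letters read by ETS factors such as PU.1, or TTCC, the same letters on the other strand.
Tigit (chr16:43664185-43664434, minus strand): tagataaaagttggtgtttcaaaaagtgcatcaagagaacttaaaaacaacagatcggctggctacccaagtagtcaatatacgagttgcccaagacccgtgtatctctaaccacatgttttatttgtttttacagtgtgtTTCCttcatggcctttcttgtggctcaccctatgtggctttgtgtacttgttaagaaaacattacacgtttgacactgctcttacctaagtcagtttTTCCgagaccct
Asb2, distal start (chr12:103356002-103356251, minus strand): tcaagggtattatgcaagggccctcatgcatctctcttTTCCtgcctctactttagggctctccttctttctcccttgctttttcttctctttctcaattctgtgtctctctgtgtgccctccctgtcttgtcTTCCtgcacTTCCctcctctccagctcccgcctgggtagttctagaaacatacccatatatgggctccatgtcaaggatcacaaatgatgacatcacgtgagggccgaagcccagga
Asb2, internal start (chr12:103338391-103338640, minus strand): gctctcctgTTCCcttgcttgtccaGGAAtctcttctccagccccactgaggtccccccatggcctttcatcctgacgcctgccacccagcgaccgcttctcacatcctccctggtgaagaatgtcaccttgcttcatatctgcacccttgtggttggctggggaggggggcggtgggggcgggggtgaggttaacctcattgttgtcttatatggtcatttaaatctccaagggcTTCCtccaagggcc
Tspan32 (chr7:143004796-143005045, plus strand): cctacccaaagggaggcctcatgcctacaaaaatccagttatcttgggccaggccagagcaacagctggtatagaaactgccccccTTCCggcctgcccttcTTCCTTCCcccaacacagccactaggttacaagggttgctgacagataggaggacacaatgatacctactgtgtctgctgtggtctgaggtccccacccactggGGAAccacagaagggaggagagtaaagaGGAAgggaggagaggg

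GGAA on either strand occurred 2 times before Tigit, 3 times before each Asb2 start and 5 times before Tspan32. Of 32851 promoters of this length, 93.4% hold it, so its presence does not set these sequences apart. The longer GAGGAA, which contains GGAA, was found before the internal start of Asb2 and before Tspan32, and 23.3% of promoters hold it. TGTGGT, the letters of a RUNX site, was found before Tigit, the internal start of Asb2 and Tspan32, and 14.0% of promoters hold it. AGATAA, the letters of a GATA site, was found before Tigit and Tspan32, against 9.99% of promoters. The E-box CAGCTG (13.0% of promoters) was found before Tspan32, GGGCGG (32.7%) before the internal start of Asb2, GAAANNGAA (7.13%) before the distal start of Asb2 and TGACNNNGC (10.2%) before Tigit. The other motifs searched, the AP-1 site TGANTCA (6.75% of promoters), the NF-kappaB letters GGGACTT (4.65%), the TATA box TATAAA (12.4%), the CCAAT box (33.8%), the SMAD site GTCTAGAC (0.167%) and the CSL site GTGGGAA (5.42%), were not found before any of the 4 starts on either strand. The CpG count was 5 before Tigit, 3 and 5 before the Asb2 starts and 1 before Tspan32, against a median of 6 over all promoters. These letter matches were not tested as sites.

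Library totals ranged from 18247312 to 25386785 reads in L/L libraries and from 15199378 to 17372643 in +/+ libraries. Levels are given as CPM, read counts scaled to the total of the library, with the duplicates of a line summed, and levels of different genes are compared only as FPKM, which also divides by gene length. A count of 3 in the shallowest control library, 0.197 CPM, was taken as the floor of detection. Intervals are exact 95% Poisson intervals, and they and the floor cover counting error only. In cultured cells read in bulk, fewer cells carrying a transcript and less of it in each cell cannot be told apart. The table keeps only genes that passed the authors' own genotype comparison. Of 15 defining markers of leukocyte, endothelial, fibroblast and epithelial cells, Csf1r alone is listed, and the others, Ptprc, Cd3e and Epcam among them, as well as Cpt1a, were not analysed here. The labelled epithelial identity and a blood-cell identity could therefore not be checked against those markers.

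All 5 members were higher in each of the 4 L/L lines than in both +/+ lines. Across the table this held for 38.1% of genes in that direction, and 36% of genes were lower in all 4 L/L lines. Since the members were selected on this contrast, nothing is read from their count. The controls were at or under 3 reads in every library for 4 members, Tigit, Grap, Asb2 and Tspan32. Of the 565 listed genes with so few control reads, 307 were higher in all 4 L/L lines. Ordered by mean L/L level, Asb2 was number 5 of those 307, Tigit number 7, Grap number 25 and Tspan32 number 236.

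**Figure D1:**
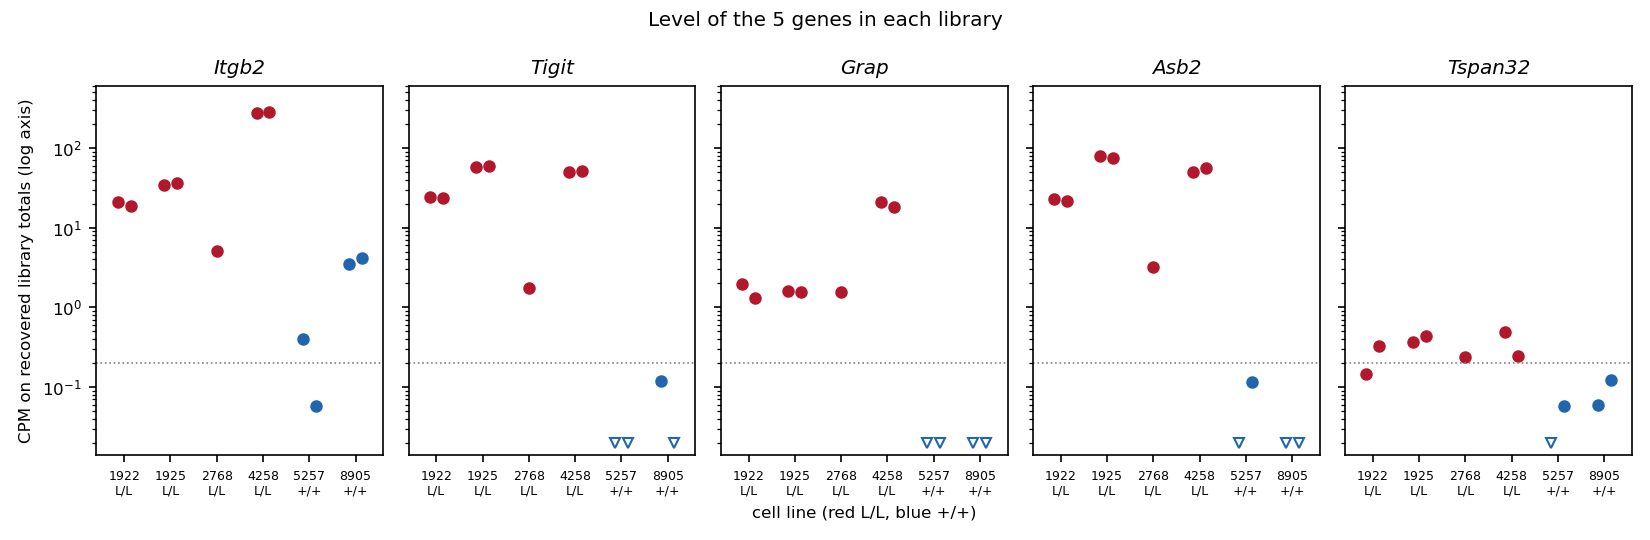
CPM of the 5 genes (log axis) in each library, grouped by line, with NIC/Cpt1a L/L in red and NIC/Cpt1a +/+ in blue. Open triangles are libraries with 0 reads and the dotted line is the floor of 0.197 CPM. Itgb2 in KO_2768 (5.04 CPM) lies just above WT_8905 (3.81 CPM), and Grap has 0 reads in all 4 control libraries.

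Itgb2 (ENSMUSG00000000290, mm10 chr10:77530252-77565708, plus strand) was the only member clearly read in a control line. Its level was 278 CPM in KO_4258, 35.3 in KO_1925, 20.1 in KO_1922 and 5.04 in KO_2768, and 3.81 in WT_8905 and 0.215 in WT_5257. Each step in that order was larger than the difference between duplicate libraries. The step from KO_2768 to WT_8905 was 1.32-fold, and its counting intervals met (4.21 to 5.99 CPM and 3.18 to 4.54 CPM). KO_2768 had 1 library with 128 reads, and WT_8905 had 59 and 67 reads. The mean was 84.7 ± 130 CPM (SD, n = 4 lines) in L/L lines and 2.01 ± 2.54 (n = 2) in controls, a 42.1-fold difference of means. KO_4258 carried 82.2% of the summed L/L level, and without it the L/L mean was 20.1 CPM and the ratio 10-fold. The 2 controls also stood apart from each other, at 17.7-fold, and the ratio was 22.2-fold without WT_5257 and 394-fold without WT_8905. Itgb2 in the L/L lines was thus high in 1 line, moderate in a pair and close to a control in the fourth.

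Per length, Itgb2 reached 93.7 FPKM in KO_4258, above 94.5% of the listed genes in that line. In the other L/L lines it was 11.9 (KO_1925), 6.76 (KO_1922) and 1.70 FPKM (KO_2768). It was the member with the highest FPKM in KO_4258, and Tigit was the highest in KO_1925 and KO_1922. In KO_2768 the order of Tigit (1.80 FPKM, 44 reads) and Itgb2 (1.70 FPKM, 128 reads) was not resolved in 1 library.

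Tigit (ENSMUSG00000071552, chr16:43648861-43664184, minus strand) was almost unread in controls, with 2 reads in 1 library of WT_8905 and 0 in the other 3. In L/L lines it was 58.1 CPM in KO_1925, 50.7 in KO_4258, 23.7 in KO_1922 and 1.73 in KO_2768. The mean was 33.6 ± 25.9 CPM (SD, n = 4). Pooled over libraries, 5421 L/L reads against 2 control reads gave a ratio of 1212, with a counting interval from 335 to 10007. That interval treats the reads as 1 pool. It leaves out the spread between lines and between duplicates, so it describes no single L/L line and is no test of genotype. No L/L library overlapped a control library, and the lowest, KO_2768 with 44 reads, was 28.6-fold above WT_8905. The drop from KO_1922 to KO_2768 was 13.7-fold, larger than the spread of duplicates. Tigit reached 60.4 FPKM in KO_1925, above 91.3% of listed genes there, and 1.80 FPKM in KO_2768.

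Asb2 (ENSMUSG00000021200, chr12:103321142-103356001, minus strand) followed the same order of lines. Its level was 77.9 CPM in KO_1925, 52.9 in KO_4258, 22.0 in KO_1922 and 3.23 in KO_2768, with a mean of 39.0 ± 33.0 (SD, n = 4). The controls held 2 reads in 1 library of WT_5257 and 0 in the other 3. Pooled, 6226 reads against 2 gave a ratio of 1391 (counting interval 385 to 11492, which again leaves out the spread between lines). All L/L libraries were above all control libraries, and every step between neighbouring L/L lines exceeded the spread of duplicates. Asb2 was 29.0 FPKM in KO_1925, above 81.1% of the listed genes, and 1.20 FPKM in KO_2768. The annotated antisense gene Gm15523 shares 11152 bases with the Asb2 locus, and whether counting used the strand was not given in the sources used here, so its reads cannot be told apart from those of Asb2.

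Tigit and Asb2 lie on different chromosomes and their levels moved in parallel. The ratio of Tigit to Asb2 in FPKM was 3.01 in KO_1922, 2.68 in KO_4258, 2.08 in KO_1925 and 1.50 in KO_2768, while the level of Tigit itself spanned 33.5-fold among these lines. The order KO_1925, KO_4258, KO_1922, KO_2768 was shared by 3.38% of all listed genes. A small share would also be met if all possible orders of these lines were equally common. The shared order is therefore not read as unusual.

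**Figure D2:**
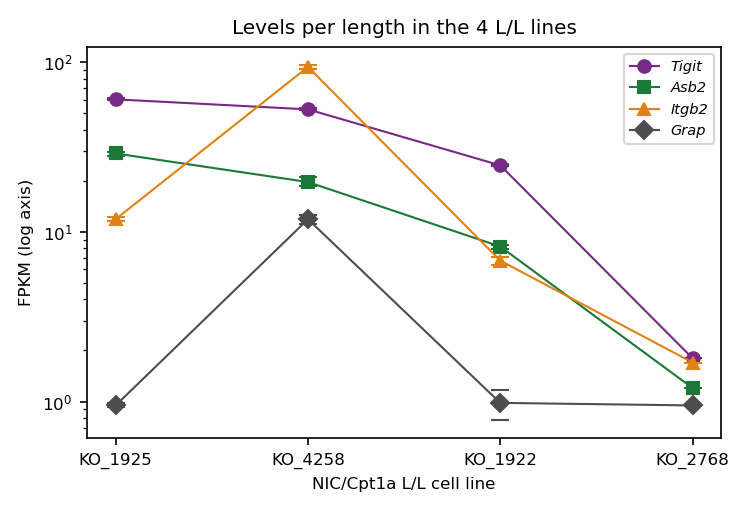
FPKM of Tigit, Asb2, Itgb2 and Grap (log axis) in the 4 NIC/Cpt1a L/L lines. Large symbols are line values, short bars are single libraries and connecting lines only guide the eye. Tigit and Asb2 decline together from KO_1925 to KO_2768, whereas Itgb2 and Grap peak in KO_4258.

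Grap (ENSMUSG00000004837, chr11:61653265-61672784, plus strand) had 0 reads in all 4 control libraries. In L/L lines it was 19.7 CPM in KO_4258 and 1.63, 1.58 and 1.58 CPM in KO_1922, KO_1925 and KO_2768. The gaps between the last 3 lines were smaller than the spread of duplicates, and KO_4258 stood 12.1-fold above the next line. The L/L mean of 6.13 ± 9.06 CPM (SD, n = 4) exceeded the floor in a control library by a factor of at least 31.0, and 80.5% of it came from KO_4258. Without KO_4258 the mean was 1.59 CPM, a factor of at least 8.08. Read counts were 24 to 40 per library in the 3 low lines and 511 and 372 in KO_4258. Grap overlaps the end of Slc5a10 on the other strand by 4 bases.

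Tspan32 (ENSMUSG00000000244, chr7:143005046-143019644, plus strand) was close to the floor in every line. It had 3 to 12 reads in each L/L library and 0, 1, 1 and 2 reads in the control libraries. By line it was 0.401 CPM in KO_1925, 0.380 in KO_4258, 0.236 in KO_2768 and 0.229 in KO_1922, and 0.0908 in WT_8905 and 0.0307 in WT_5257. No neighbouring pair in that order differed beyond the spread of duplicates, and the intervals of the lowest L/L line (0.105 to 0.435 CPM) and of WT_8905 (0.0187 to 0.265 CPM) overlapped. Pooled, 47 reads against 4 gave a ratio of 5.25 (counting interval 1.92 to 20.1). This interval rests on reads and not on lines, and it is no test of the contrast on which Tspan32 was selected. The L/L mean was 0.312 ± 0.0914 CPM (SD, n = 4), and no line exceeded 0.214 FPKM. The antisense gene Tspan32os shares 2988 bases with Tspan32, so these few reads cannot be assigned to either strand.

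How far the L/L lines differ from one another was tested, a question other than the genotype contrast that chose the members. It is not independent of the selection. The authors' comparison depended on the spread within each genotype, and the members were chosen with earlier results of these data known. Tigit, Grap and Asb2, almost unread in controls, passed the count filter only through L/L libraries. With edgeR's quasi-likelihood F-test over libraries, 4 of the 4 members that passed the count filter differed among the L/L lines, with adjusted p = 6.68e-47 for Itgb2, 3.68e-32 for Asb2, 2.99e-31 for Tigit and 4.53e-26 for Grap. In that test 88.6% of 4377 genes were called, so being called is not particular to the members. Tspan32 did not pass the filter. The p-values rest on duplicate libraries of lines and measure differences between these 4 lines, not between animals. From the highest to the lowest L/L line, the log2(CPM + 0.5) range was 5.65 for Itgb2, 4.71 for Tigit, 4.39 for Asb2, 3.28 for Grap and 0.30 for Tspan32, against a median of 0.84 over listed genes. These ranges exceeded those of 97.3%, 95.5%, 94.6%, 90.1% and 11.6% of listed genes. Tspan32 lay below the added 0.5 CPM in every line, so its range and rank mostly reflect the pseudocount. Without it, its highest L/L line was 1.75-fold above its lowest. KO_4258 was the highest L/L line for Itgb2 and Grap and for 26.2% of listed genes. KO_1925 was the highest for Tigit and Asb2 and for 23.1%. For Tspan32 the order of KO_1925 and KO_4258 was not resolved.

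Line profiles were compared as log2(CPM + 0.5) centred on the mean of the 6 lines, with the root mean square difference as the measure of likeness. The nearest listed protein-coding genes to Itgb2 were Prkg2 (0.37) and Kcnab1 (0.47). Prkg2 was 421 CPM in KO_4258, 12.8 in KO_2768 and 4.72 and 0.522 CPM in the controls. For Tigit the nearest were Gcnt3 (0.30) and Asb2 (0.31), and for Asb2 they were Tigit (0.31) and Gcnt3 (0.44). Gcnt3 was 58.4 CPM in KO_1925, 38.6 in KO_4258, 31.6 in KO_1922 and 2.44 in KO_2768, and 0.0614 and 0.272 CPM in the controls. The nearest to Grap were AI607873 (0.25) and Mnda (0.36), both on chromosome 1, at 18.4 and 20.5 CPM in KO_4258. Those pairs kept their ranks with pseudocounts of 0.1 and 1. The profile of Tspan32 was almost flat at this pseudocount, with 1700101E01Rik (0.06) and Rp2h (0.06) nearest, and Rp2h fell to rank 374 at 0.1 and 111 at 1. All of these genes were listed for the same contrast, and the profiles share libraries and totals.

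**Figure D3:**
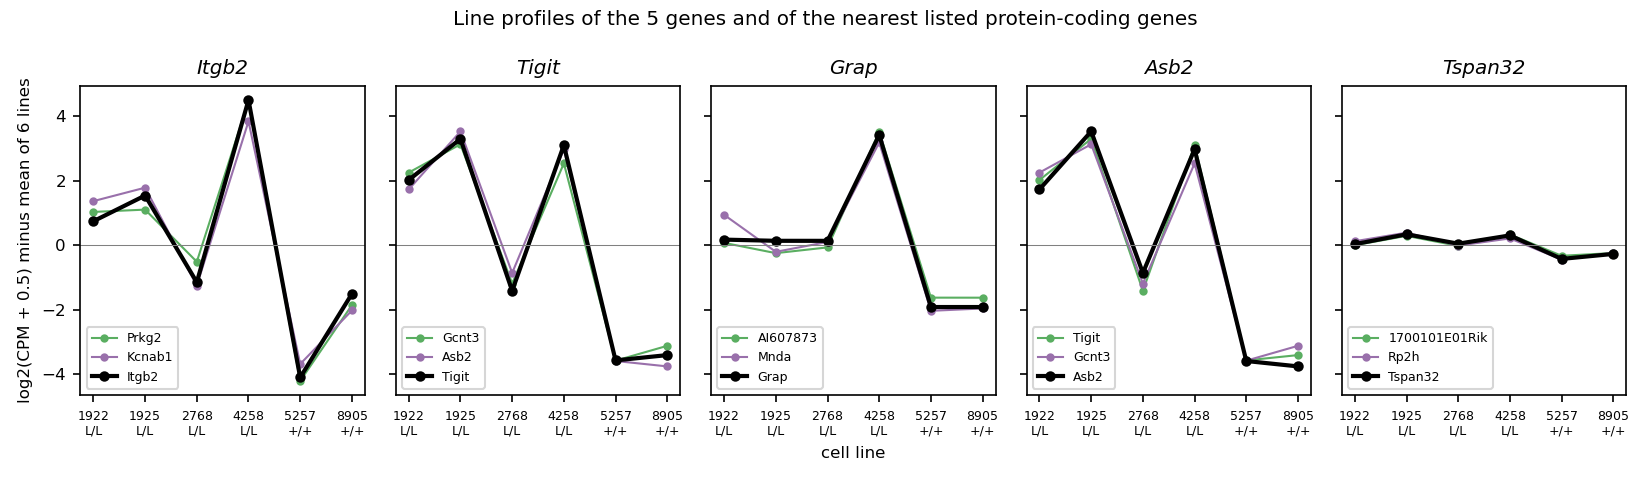
Centred log2(CPM + 0.5) over the 6 lines for each of the 5 genes (black) and its nearest listed protein-coding genes (green, nearest; purple, next). Tigit and Asb2 each appear in the other's panel, and the Tspan32 panel is flat.

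The partners of each member were taken from lists of gene symbols, in which older and newer names of a gene count separately. Of the listed genes tested by line with edgeR, 1.66% passed as raised and 3.47% as lowered in L/L lines, with adjustment over the 4268 tested genes. With edgeR, none passed when the 55450 genes of the reference annotation were counted as tests. That count was not made for DESeq2, the second method, whose adjustment was over listed genes only. All listed genes had already passed the authors' own genotype comparison. Genotype calls by either method therefore repeat that selection and are no separate support. At an unadjusted p under 0.05, 917 were higher and 1237 lower. Each gene called by line in the next paragraphs lost its call when KO_1922, KO_1925 or WT_5257 was left out. The median log2 difference over all listed genes was 0.50. 

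Of 26 symbols for alpha partners, ligands and activators of beta2 integrins, 10 were in the table, and none of Itgal, Itgam, Itgax and Itgad, the alpha subunits that pair with Itgb2, is among them. Their median log2 difference was 0.63. Of 9 tested with edgeR, 1 was raised and 1 lowered, with 1 higher and 3 lower at an unadjusted p under 0.05, and DESeq2 called 1 raised and 3 lowered. Rassf5, which couples Rap1 to the integrin LFA-1, was 25.4 to 26.2 CPM in L/L lines and 9.70 and 11.5 CPM in controls (adjusted p = 0.0474), and Tln2, a talin, was 12.5 to 26.6 against 64.6 and 48.7 CPM (adjusted p = 0.0479). Both were picked out here after their values were seen. C3, the complement protein whose fragments bind these integrins, was 1192, 885, 4385 and 1339 CPM in KO_1922, KO_1925, KO_2768 and KO_4258 and 28.2 and 744 CPM in WT_5257 and WT_8905 (adjusted p = 0.172). Tln1, the talin that activates integrins, was 200 to 628 CPM against 222 and 183, F11r was 216 to 257 against 171 and 200, and Fermt2 was 65.2 to 126 against 158 and 337, none passing with edgeR, while Fermt2 passed with DESeq2 (adjusted p = 0.00218). Among 6 other integrin subunits in the table, Itga5, the fibronectin receptor subunit, was raised at 31.8, 30.1, 108 and 37.6 CPM against 0.154 and 0.454 (adjusted p = 0.0344). Itgb1 (925 to 1309 CPM against 679 and 977), Itga3 (335 to 1298 against 254 and 465) and Itga8 (31.2 to 87.0 against 240 and 192) did not pass with edgeR. DESeq2 called 2 of the 6 raised and 2 lowered, Itga8 among the lowered (adjusted p = 0.000581).

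Of 19 symbols for ligands, paired receptors and signalling partners of Tigit, 6 were in the table with a median log2 difference of 0.49, and none of the 6 tested by edgeR passed, with 1 at an unadjusted p under 0.05 as higher and 1 called lower by DESeq2. The receptors Cd226 and Cd96, which share these ligands, are not among the listed genes. Pvr, the main ligand of Tigit, was 43.5, 37.7, 46.5 and 36.1 CPM in the L/L lines and 23.4 and 35.0 CPM in the controls (adjusted p = 0.155). Pvrl2, another ligand, was 165, 108, 157 and 52.8 CPM against 27.1 and 75.7 CPM (adjusted p = 0.136). Ligand transcripts were thus read in all 6 lines, those of WT_5257 and WT_8905 included, in which Tigit had 0 and 2 reads. Cadm1 was 117 to 150 CPM against 108 and 92.7.

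Of 30 symbols around Grap, 11 were in the table with a median log2 difference of -0.88. Of 10 tested with edgeR, 0 were raised and 3 lowered, with 1 higher and 5 lower at an unadjusted p under 0.05, and DESeq2 called 1 raised and 5 lowered. The lowered genes were Dusp6, an ERK phosphatase (29.5 to 70.1 CPM against 1092 and 605, adjusted p = 0.0231), Nck2, an SH2 and SH3 adaptor (85.9 to 107 against 152 and 210, adjusted p = 0.0479), and Spry4, a feedback inhibitor of Ras signalling (0.668 to 2.76 against 31.2 and 38.6, adjusted p = 0.0357), which was picked out after its values were seen. Grb2, the widely expressed paralog of Grap, was 120 to 135 CPM against 110 in both controls (adjusted p = 0.322). Shc1 was 110 to 141 CPM against 511 and 162 CPM.

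Of 29 symbols for the Asb family, its ligase and filamins, 4 were in the table with a median log2 difference of 0.66. None of the 4 passed with edgeR, with 2 higher at an unadjusted p under 0.05, and DESeq2 called 2 raised and 1 lowered. Cul5, the scaffold of the ligase, was 54.1 to 62.6 CPM in L/L lines and 78.8 and 64.5 CPM in controls (adjusted p = 0.104). Tceb2, which encodes elongin B of the same ligase, was 141 to 163 against 68.2 and 110 (adjusted p = 0.0775), and Asb4 was 0.267 to 0.315 against 0.0307 and 0.0908. Flnc, a filamin, was 39.0, 51.0 and 58.3 CPM in KO_1922, KO_1925 and KO_2768 and 0 reads in KO_4258, with 0.0307 and 1.66 CPM in controls (adjusted p = 0.141). Asb2 and Flnc were both high in KO_1925, but KO_4258 had the next highest Asb2 and no Flnc reads. KO_2768 had the most Flnc and the least Asb2 of the L/L lines. These are transcript levels, and an effect of Asb2 on filamin protein was not tested.

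Of 30 symbols for tetraspanins, 8 were in the table beside Tspan32, with a median log2 difference of -2.27. None of the 7 tested passed, with 1 higher and 5 lower at an unadjusted p under 0.05, and DESeq2 called 1 raised and 5 lowered. Of the 8, 4 were lower and 2 higher in all 4 L/L lines than in both controls. Tspan1 was 1.73 to 31.2 CPM against 691 and 154, Tspan13 0.313 to 10.4 against 241 and 52.0, Tspan15 0.882 to 8.98 against 99.2 and 34.5, and Tspan2 15.2 to 27.2 against 53.9 and 36.4. Tspan5 was 13.7 to 34.6 CPM against 10.2 and 7.29, and Rom1 was 4.41 to 8.53 against 2.61 and 4.39. These last were picked out after their values were seen.

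Markers of cell types that could accompany these genes were read from 9 lists without the members. Of 6 blood-cell lists, 20 genes were in the table, and none of 19 tested passed with edgeR, with 4 higher and 2 lower at an unadjusted p under 0.05, while DESeq2 called 8 raised and 4 lowered. The pan-leukocyte list (6 of 35 symbols) summed to 30.9 to 76.2 CPM in L/L lines and 67.8 and 71.0 CPM in controls. In it Lsp1, an actin-binding protein of leukocytes, was 7.48 to 27.9 CPM against 0 and 1.42, whereas Ikzf1, a lymphoid transcription factor, was 0 to 12.3 against 42.8 and 40.7. Ptpn6, a phosphatase of blood cells, was 11.9 to 21.0 against 25 and 27.3, and Syk, a kinase below immune receptors, was 17.5 to 31.0 CPM in 3 L/L lines, 0 reads in KO_4258 and 0.0307 and 1.51 CPM in controls. In KO_4258, where Itgb2 was at its highest, Ptpn6 was 21.0 CPM, the highest of the L/L lines, Lsp1 was 9.87 CPM, and Ikzf1 and Syk had 0 reads.

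The T and NK cell list (3 of 39) summed to 1.25 to 7.09 CPM in L/L lines and 0.0307 and 0.151 CPM in controls. Trac, the T cell receptor alpha constant gene, was 4.95 CPM in KO_1925, 1.21 in KO_4258, 0.688 in KO_1922 and 0.0394 in KO_2768, and 0 and 0.151 CPM in the controls. Its order among the L/L lines was that of Tigit and Asb2, which 3.38% of all listed genes shared. Its value in KO_2768 lay under the floor of 0.197 CPM. Havcr2 was at most 2.32 CPM and Thy1 at most 6.26 CPM, both lowest in KO_4258. The summed list was highest in KO_2768, the L/L line with the least Tigit, where 6.26 of the 7.09 CPM was Thy1, a gene that the fibroblast list holds too, and where Trac was at its lowest in the L/L group.

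The macrophage and dendritic cell list (5 of 29) summed to 7.76 to 319 CPM in L/L lines and 72.7 and 29.4 CPM in controls. Csf1r, the receptor that macrophages need to survive, was 303 CPM in KO_4258, 17.6 in KO_1925, 4.23 in KO_1922 and 0.0788 in KO_2768, and 0.0307 and 0.424 CPM in controls (adjusted p = 0.109). Its line order in the L/L group was that of Itgb2, with KO_4258 highest. KO_4258 was the highest L/L line for 26.2% of all listed genes, and the share with the full order of Itgb2 was not counted. Cd163, another macrophage marker, was 0.241 to 13.6 CPM in L/L lines against 72.5 and 27.7 CPM. Within the L/L group KO_4258 had the highest Cd163 (13.6 CPM) and Cd74 (0.692 CPM), the lowest Mpeg1 (0.938 CPM) and 0 reads of H2-Ab1. Cd74 was not among the genes named by level. It did not pass as different among the L/L lines (edgeR F-test over libraries, adjusted p = 0.175). The part of macrophages or other blood cells in the levels of the members was not tested, because Ptprc and Adgre1 were not analysed here.

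Of the other blood-cell lists, the B cell list was Ebf1 alone (1 of 13, 0.246 to 20.2 CPM against 0 and 0.182), the granulocyte list S100a9 alone (1 of 16, 0.201 to 3.51 against 0 and 0.121), and the platelet and red cell list (4 of 17) summed to 4.31 to 9.30 against 7.09 and 62.2 CPM. In the last, Ppbp was 0.236 to 5.08 CPM against 0 in both controls, Gp9 at most 0.473 CPM, Gp1bb 1.22 to 2.99 against 6.57 and 8.29, and Itgb3 0.246 to 3.70 against 0.522 and 53.9. The endothelial list was Eng alone (1 of 12, 1.30 to 2.73 against 0.706 and 1.12 CPM). The fibroblast list (7 of 14) summed to 759 to 6232 CPM in L/L lines against 12.9 and 27.8. In KO_4258 that sum was S100a4 alone, at 759 CPM, and Fn1, Dcn and Pdgfrb had 0 reads, while they were at 4638, 1390 and 13.6 CPM in KO_2768. The mammary epithelial list (7 of 24) summed to 88.2 to 436 CPM in L/L lines against 8962 and 7144, with the milk protein gene Csn3 at 0.826 to 334 against 8659 and 6817 CPM. In the same list Elf5 was 17.1 to 146 against 289 and 306, Elf3 was 11.2 to 71.3 against 11.5 and 11.3, and Krt17 was 1.14 to 11.1 against 0 and 0.0303 CPM. None of the 32 genes tested over the 9 lists passed with edgeR, with 6 higher and 5 lower at an unadjusted p under 0.05, and DESeq2 called 14 raised and 7 lowered. The T and NK cell, B cell, granulocyte, endothelial and fibroblast sums were higher in each of the 4 L/L lines than in both controls. The mammary epithelial sum was lower in each. In KO_4258 the B cell sum (0.246 CPM) and granulocyte sum (0.201 CPM) lay near the floor of 0.197 CPM. WT_8905 had 0.182 and 0.121 CPM, and no counting interval was taken for these gaps. The endothelial sum in KO_2768 (1.30 CPM) was close to that in WT_8905 (1.12 CPM). Among all listed genes, 38.1% were higher and 36% lower in every L/L line. The part of these cell types in the members' levels was not tested.

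**Figure D4:**
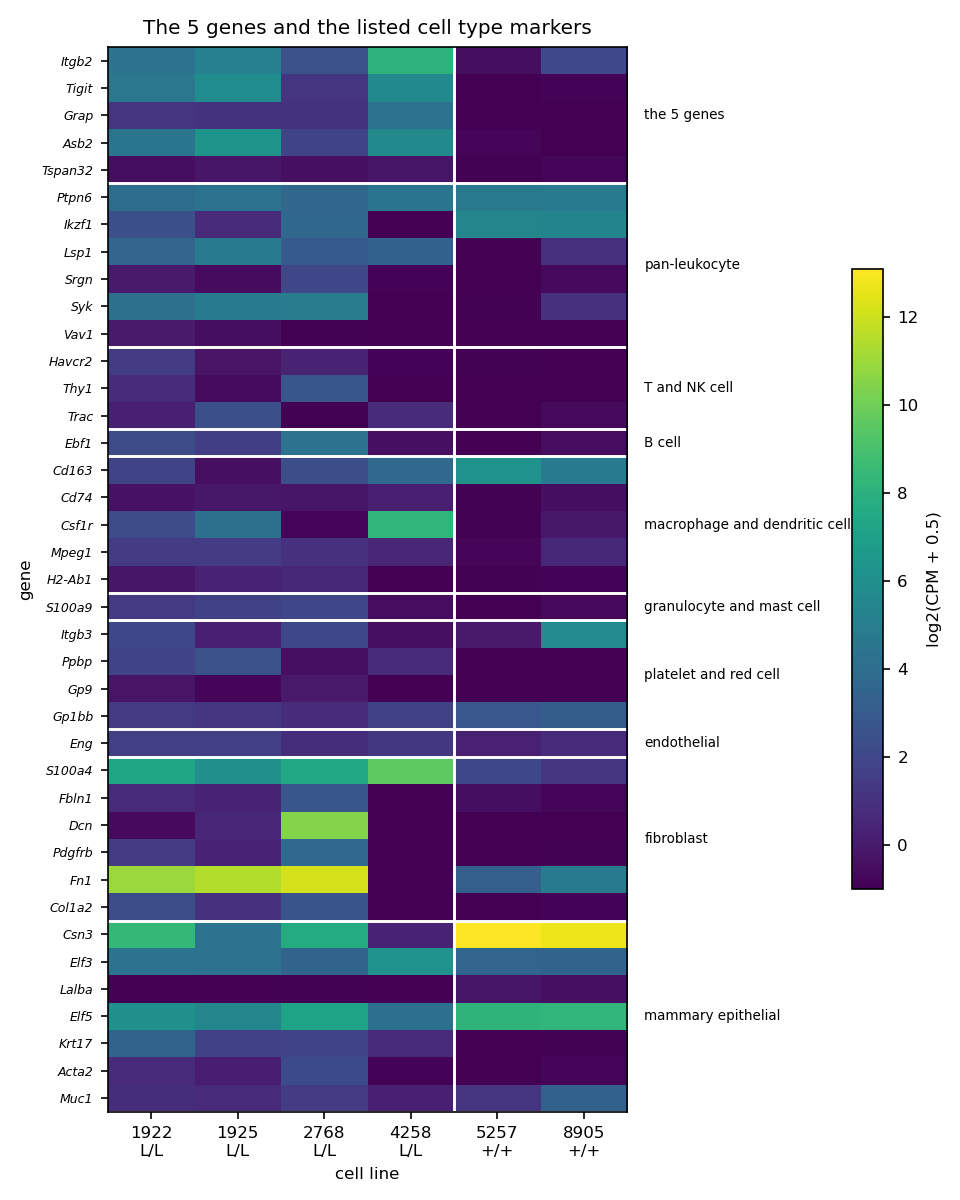
Heat map of log2(CPM + 0.5) by line for the 5 genes (top block) and all listed genes of the 9 cell type lists, a white line separating L/L from +/+ lines. Csf1r and Itgb2 are brightest in KO_4258, the line in which Fn1 and Syk are at the dark end, and Csn3 is brightest in the controls.

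Listed genes near the members on the chromosome were also compared. Within 1 Mb of Itgb2 lie 11 listed genes, 6 higher and 5 lower on average in L/L lines. Tigit has 5, all lower, Grap 12 with 9 higher, Asb2 14 with 8 higher and Tspan32 12 with 10 higher, while 58.6% of all listed genes were higher. The nearest to Itgb2 were Fam207a at 14.4 kb (27.3 to 36.0 CPM against 25.4 and 26.5) and Pttg1ip at 16.0 kb (358 to 553 against 229 and 255). Tigit had no listed neighbour closer than Zdhhc23 at 305 kb (0.394 to 1.07 against 4.48 and 1.97 CPM), and on the other side Timmdc1 lay 5126 kb away. Next to Grap, Epn2 at 73.6 kb was 426 to 673 CPM against 120 and 151 (adjusted p = 0.0425), and Adora2b lay 576 kb away. Next to Asb2, Ifi27l2a at 86.2 kb was 0.335 to 37.1 CPM against 1.75 and 1.45, and Unc79 at 137 kb was at most 0.0535 CPM against 1.41 and 0.938 (adjusted p = 0.0471). Next to Tspan32, Trpm5 at 49.5 kb was 0.0670 to 2.40 CPM against 0.154 and 0.151, and Igf2 at 338 kb was 0.473 to 1.10 CPM against 0 in both controls (adjusted p = 0.0471). None of the listed neighbours overlaps a member.

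**Figure D5:**
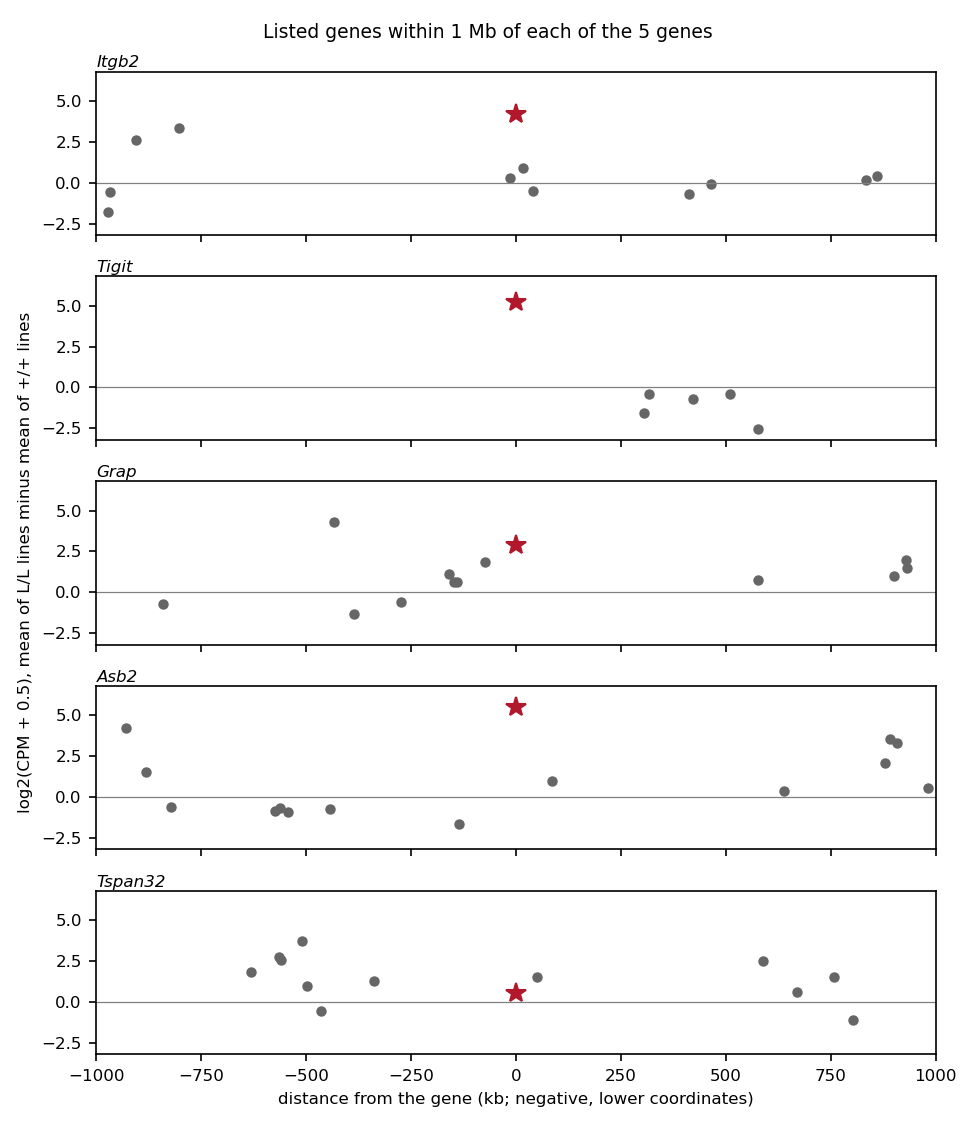
Difference in mean log2(CPM + 0.5), L/L minus +/+ lines, of listed genes within 1 Mb of each of the 5 genes, against distance in kb. The star is the gene itself and each point 1 listed neighbour. The stars stand at 4.22 for Itgb2, 5.25 for Tigit, 2.88 for Grap, 5.52 for Asb2 and 0.53 for Tspan32, and the 5 neighbours of Tigit are all below 0. The added 0.5 CPM shrinks differences where controls are near the floor, as for Tigit, Grap, Asb2 and Tspan32, so the stars do not rank the members.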

How the data were processed

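RNA-Seq was performed on 11 libraries from 6 tumor-derived cell lines. The authors mapped reads to mm10 with STAR and obtained the deposited read counts per gene with HTSeq. Trimmomatic, edgeR and limma also stand in the submitters' processing notes. The authors deposited FPKM and a normalized signal, in which the counts of a library share 1 size factor. The log2 fold changes and p-values of the authors' own comparison were deposited in the same table and were not used. The strand setting of counting was not given in the sources used here. The table lists 4461 genes that passed that comparison, which carry 33.3% to 34.6% of each library's reads, so library totals were recovered from counts, gene lengths and FPKM.

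Counts of duplicates were summed by line. Genes were tested in R 4.3.3 with edgeR 4.0.16 (filterByExpr, then TMM factors on the recovered totals, 0.969 to 1.05 for line sums, quasi-likelihood F-test, Benjamini-Hochberg adjustment, threshold 0.05). The genotype was compared by line sums (4268 genes), and L/L lines were compared over all 11 libraries (4377 genes). DESeq2 1.42.0 was an alternative, and functions were tested on simulated data. Log values used a pseudocount of 0.5. Intervals for pooled read ratios are exact (conditional binomial, 95%) and cover counting error only, not the spread between lines or duplicates. The plan had set folds against a floor of 3 counts for all members with so few control reads. Where controls held 1 to 3 reads in a line, the pooled ratio was given instead, a choice made after the data were seen. Duplicates differed by more than sampling noise (chi-square per degree of freedom 2.12 to 9.27), and nothing in the sources ties same-numbered libraries of different lines to each other.

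The members and the gene lists were chosen with earlier results of these data known. Named genes were the 5 members, up to 4 listed genes per list with the highest mean CPM, the 2 nearest line profiles per member and the nearest listed gene on either side. Figures used matplotlib 3.10.9 under Python 3.11.15. Gene coordinates are those of the table, overlaps come from GENCODE vM21 and promoters from RefSeq (GRCm38.p6), in which 3 of the 5 members were matched by symbol.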

Additional observations from a re-analysis of the deposited data

Results flagged for a closer look

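Each of 74 named genes was examined for a line that stood apart from the other 3 L/L lines by Dixon's criterion. Chance meets the criterion in about 5% of groups of normally distributed values. It was applied to CPM without logs, whose spread need not be normal, so no excess over 5% is read from the share given here. It was met by 15 of the 67 genes (22.4%) that were not chosen for a profile like a member's, 7 in KO_4258, 6 in KO_2768 and 1 each in KO_1922 and KO_1925. The genes named for a like profile are given with their values but not counted, since likeness to the members fixed their profile. These genes share lines and are not independent of each other.

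Among the members, Itgb2 was 278 CPM in KO_4258 and 5.04 to 35.3 CPM in the other L/L lines. Grap was 19.7 CPM in KO_4258 and 1.58 to 1.63 CPM elsewhere in the group. In the same line Csf1r was 303 CPM, against 0.0788 to 17.6 CPM in the others. S100a4 was 759 CPM in KO_4258 against 65.9 to 172 CPM, and Elf3 was 71.3 CPM against 11.2 to 20.4 CPM. Cadm1 was lowest in KO_4258 at 117 CPM, against 146 to 150 CPM. In KO_2768, which had 1 library, Dcn was 1390 CPM against 0 to 0.909 CPM. Pdgfrb was 13.6 CPM there against 0 to 2.24 CPM, and C3 was 4385 CPM against 885 to 1339 CPM. Itga5 was 108 CPM in KO_2768 against 30.1 to 37.6 CPM, and Tspan15 was 8.98 CPM against 0.882 to 1.61 CPM. Among genes with a like profile, Prkg2 was 421 CPM in KO_4258 against 12.8 to 40.2 CPM, AI607873 was 18.4 CPM against 0.882 to 1.22 CPM and Mnda was 20.5 CPM against 1.50 to 3.92 CPM. Among chromosomal neighbours, Epn2 was 673 CPM in KO_4258 against 426 to 443 CPM, Adora2b was 1.65 CPM in KO_2768 against 0.0510 to 0.246 CPM, and Ifi27l2a was 37.1 CPM in KO_1922 against 0.335 to 6.07 CPM. Spry4 was lowest in KO_1925, at 0.668 CPM against 2.55 to 2.76 CPM. Tigit, Asb2 and Tspan32 did not meet the criterion in any line.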

How the results depend on the processing

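All 5 members stayed above both controls in every L/L line with TMM factors, with the deposited normalized values, with 1 library a line and with any 1 line left out. The 4 tested members differed among L/L lines in all 60 values from other settings, with the largest adjusted p, 5.01e-17, by edgeR or DESeq2. All settings reuse the same libraries. In the main setting 88.6% of 4377 genes were called, so being called is not particular to the members. Tigit, Grap and Asb2 passed the count filter only through L/L libraries. The count of genes that differed among L/L lines was 3878, and 3415 to 3901 elsewhere, including 3838 with the replicate number as a block. Same-numbered libraries of different lines did not deviate together over the genes compared (correlations -0.06 to 0.05). Any other link between them was not tested. The genotype counts by line, 71 raised and 148 lowered, depended on the setting. They became 1873 and 1680 with libraries taken as separate samples, 1706 and 1680 with the replicate block added to that fit, and 974 and 1446 with DESeq2. The lowered count was 301 with DESeq2 size factors in edgeR and 252 with no filter. Counting every gene of the reference table gave 0 and 0 with edgeR, at an unchanged 917 and 1237 under an unadjusted p of 0.05. Leaving out 1 line gave 0 to 294 raised and 0 to 347 lowered, with 0 and 0 without KO_1922, KO_1925 or WT_5257 (301 to 613 raised and 712 to 953 lowered at an unadjusted p under 0.05). The calls of Itga5, Dusp6, Nck2, Rassf5, Tln2, Spry4, Epn2, Unc79 and Igf2 were lost in those 3 fits and when every reference gene was counted (adjusted p 0.30 to 0.623). Nck2, Rassf5 and Igf2 also lost theirs without KO_2768, and without WT_8905 all but Dusp6 did. The cause was not tested. Itgb3 changed direction without WT_8905 (adjusted p 0.127 to 0.385 over the left-out lines). Of 711 values for named list genes and chromosomal neighbours, 535 kept direction and side of the threshold, 128 newly passed and 47 no longer passed. Low depth limits Tspan32 most, at 3 to 12 reads a library.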
